A study of Mus musculus with 1 sample.

Results

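Secreted and membrane-bound immune ligands, namely chemokines, interleukins, tumor necrosis factor (TNF) family ligands and 8 further cytokines, were examined in cultured mouse lung cancer cells. Members were the genes whose symbol begins with Ccl, Cxcl or Tnfsf followed by a digit, or has the form of an interleukin symbol such as Il6, or is Csf1, Csf2, Csf3, Lif, Osm, Tnf, Lta, Ltb, Tslp, Cx3cl1 or Kitl. The rule used names and no measured value, and it found 83 genes with 123 probe sets among 18193 measured genes. It also took in Tnfsf13os, which RefSeq lists as a long non-coding RNA from the strand opposite Tnfsf13 and not as a ligand, and Cxcl11, which the same table lists as a transcribed pseudogene in the C57BL/6J reference genome.

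The cells were a KR tumor-derived cell line titled KR Primary, of the B6/J strain, grown in RPMI1640 medium with fetal bovine serum and collected near confluence without a labelled treatment. The labels do not spell out KR, and no label says whether the line is 1 clone. Total RNA from 1 sample was hybridized to 1 Affymetrix array, so there is no replicate, no control group and no test, and no value below has a replicate error. The values are signal intensities in arbitrary units, 1 for each probe set, a probe set being a group of short probes to a transcript. Equal amounts of 2 transcripts can give unequal signals, so each probe set was read only against a background on the same array, and a higher signal of one gene than of another does not show more RNA.

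Background came from 126 probe sets of 112 genes of smell, taste and hair cells (receptors for odours, pheromones and bitter taste, and proteins of the hair shaft). The 95th percentile of their signals, 16.8, is called the background line, and the highest of them, 60.6 for Krtap12-1, the upper limit. The limit rests on that probe set, since the next were 42.2 and 21.0. A gene counts as above a threshold when its highest probe set is. Of all measured genes 63.3% passed the line and 47.5% the limit, the shares to set beside the marker counts that follow. All 8 measured epithelial markers were above the limit, among them Cldn4 at 1150 and Krt18 at 7600, as the label of lung cancer cells would have it. Of the leukocyte markers 6 of 18 passed the line and 3 the limit, Cd14 at 255, S100a8 at 75.8 and Cd68 at 69.8, and the defining marker Ptprc (CD45) read at most 11.5. Fibroblast markers passed the line in 2 of 10 genes and the limit in 0, and endothelial markers passed the line in 3 of 7 and the limit in 1, Egfl7 at 111. The part of such cells in the ligand signals was not tested. Less RNA per cell and fewer expressing cells cannot be told apart in such a bulk sample.

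Chemokines are small secreted proteins that direct the movement of leukocytes through G protein-coupled receptors, interleukins and colony-stimulating factors steer the growth and activation of immune and epithelial cells, and TNF-family ligands act mostly from the cell surface on receptors that control survival and costimulation. In lung epithelium and lung tumors some of these genes are made by the epithelial cells themselves, and many others mainly by lymphocytes or macrophages. Transcription of a large share of them can be driven by NF-kappaB and AP-1, and many of their messenger RNAs are short-lived.

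Of the 83 ligand genes, 35 (42.2%) were above the line, where 63.3% of all measured genes were, and 14 (16.9%) were above the upper limit, where 47.5% were. Their median level, taken from the highest probe set of each gene, was 12.1 and lay under the line, while that of all genes was 48.3, a comparison of signals over many probe sets and not of RNA amounts. Genes with more probe sets have more chances to pass, so the counts were also read at equal numbers. Of 56 ligand genes with a single probe set 21 (37.5%) passed the line and 9 (16.1%) the limit, beside 48.4% and 32.6% of all genes with a single probe set. Of 27 with more than 1 probe set 14 (51.9%) passed the line and 5 (18.5%) the limit, beside 78.6% and 62.8% of all such genes. In both strata the share of ligand genes above background was lower than that of all genes in the same stratum, and 48 of the 83 were not above the line. Leaving out Tnfsf13os, the counts were 35 and 14 of 82.

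The 14 genes above the upper limit were Il33, Il24 and Il1a among the interleukins, Cxcl16, Cxcl3, Cxcl1 and Cxcl17 among the CXC chemokines, Ccl20 among the CC chemokines, Tnfsf9 in the TNF superfamily, and Csf2, Csf3, Lif, Kitl and Cx3cl1. By class, 4 of 13 CXC chemokines (30.8%), 1 of 18 CC chemokines (5.56%) and 3 of 33 interleukins (9.09%) passed the limit. So did 1 of 11 TNF-superfamily genes (9.09%) and 5 of the 8 others (62.5%), beside 47.5% of all genes. At the line the counts in this order were 6, 5, 12, 5 and 7. These are 46.2%, 27.8%, 36.4%, 45.5% and 87.5%, beside 63.3% of all genes. Another 21 genes lay between the line and the limit, a range that some background probe sets also reach, and 12 of these 21 had only 1 probe set. With the keratin-associated genes left out of the background, the upper limit was 19.2 and 29 ligand genes passed it, beside 60.8% of all genes.

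**Figure D1:**
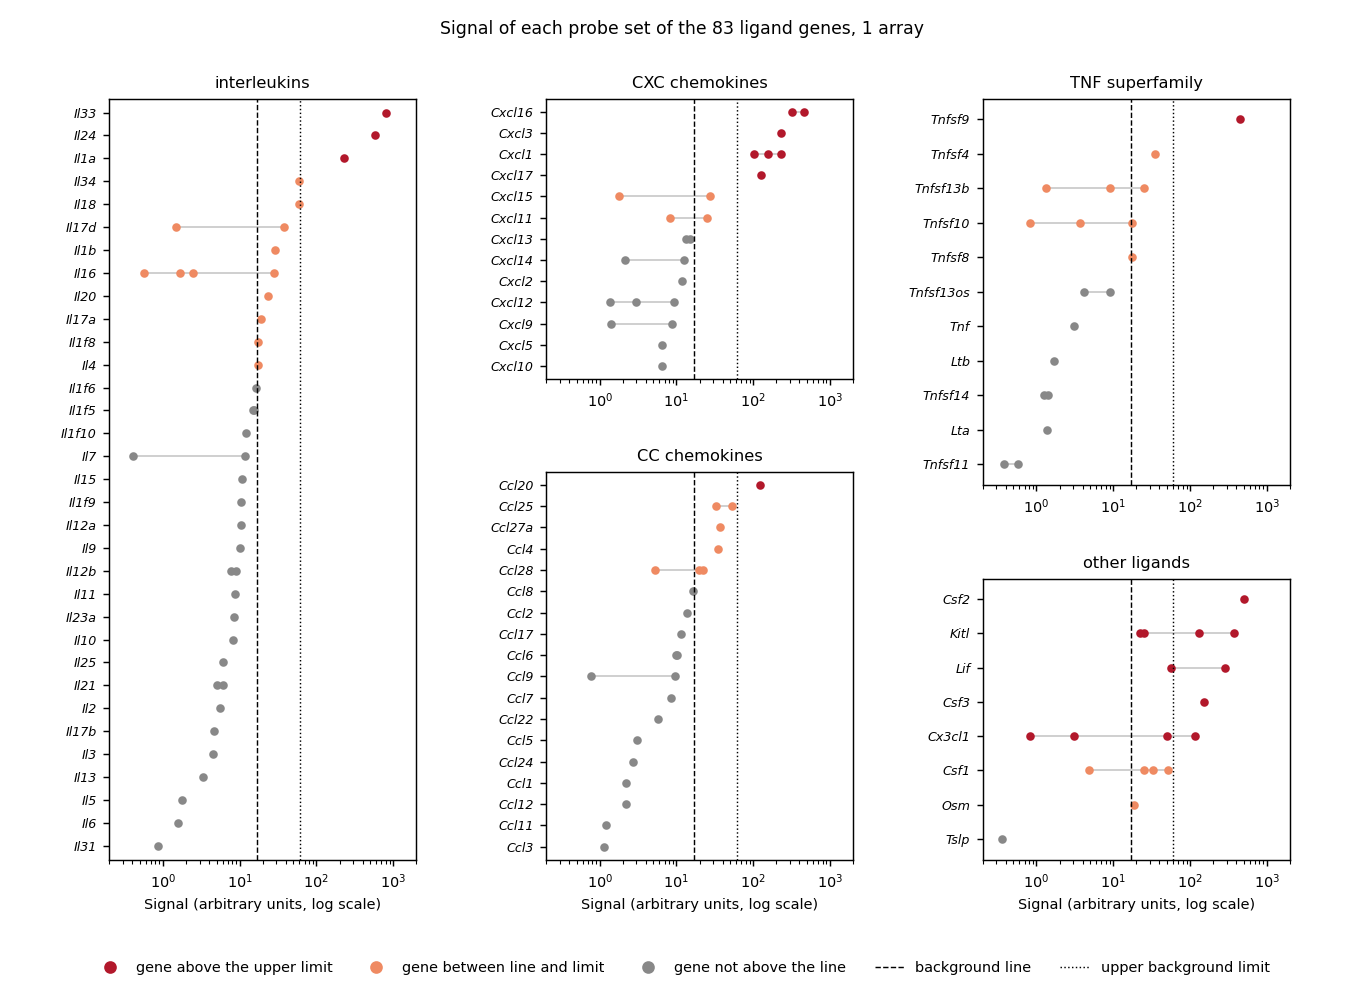
Signal of each of the 123 probe sets (points, arbitrary units, log axis) of the 83 ligand genes on 1 array, by class, with grey bars joining the probe sets of a gene. The dashed line marks the background line at 16.8 and the dotted line the upper limit at 60.6. The 14 genes above the limit are in dark red, the 21 between in orange and the 48 not above the line in grey.

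Among the CXC chemokines, those that attract neutrophils through the receptor Cxcr2 were divided. Cxcl1 (KC) passed the limit on all 3 of its probe sets, which read 227, 154 and 103. Cxcl3 passed it on its only probe set at 233. Cxcl2 (MIP-2) at 11.9 and Cxcl5 (LIX) at 6.52, each on a single probe set, were not above the line. Cxcl15 (lungkine), a chemokine of lung epithelium, read 27.5 on one probe set and 1.79 on the other, so its call rests on 1 of them. Ppbp, which also signals through Cxcr2 but is outside the symbol rule, gave 190, and its neighbour Pf4, the platelet factor, gave 49.0. Both are known best from platelets.

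Promoters with a kappaB motif, the DNA element bound by NF-kappaB, were found on both sides of the background line. The 170 bases before the start site are shown for Cxcl1, Cxcl3 and Cxcl2, neighbours with and without signal, for Ccl20, and for Il6 and Cxcl10, further genes at background that hold the motif. They come from RefSeq, build GRCm38.p6, at chr5:90891075-90891244 for Cxcl1, chr5:90785931-90786100 for Cxcl3, chr5:90903729-90903898 for Cxcl2, chr1:83116596-83116765 for Ccl20 and chr5:30012944-30013113 for Il6, all on the plus strand, and at chr5:92348890-92349059 on the minus strand for Cxcl10. Each is written 5′ to 3′ and ends at the base before the start site. Capitals mark matches to the kappaB consensus on either strand and, as the last capitals of Cxcl10, the AP-1 motif TGANTCA.
Cxcl1: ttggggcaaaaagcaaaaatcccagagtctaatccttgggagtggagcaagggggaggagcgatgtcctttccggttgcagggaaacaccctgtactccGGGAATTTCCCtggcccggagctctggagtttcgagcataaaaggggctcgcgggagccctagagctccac
Cxcl3: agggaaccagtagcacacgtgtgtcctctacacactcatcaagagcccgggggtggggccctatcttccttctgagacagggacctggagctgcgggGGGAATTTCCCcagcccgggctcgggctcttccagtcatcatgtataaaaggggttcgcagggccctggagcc
Cxcl2: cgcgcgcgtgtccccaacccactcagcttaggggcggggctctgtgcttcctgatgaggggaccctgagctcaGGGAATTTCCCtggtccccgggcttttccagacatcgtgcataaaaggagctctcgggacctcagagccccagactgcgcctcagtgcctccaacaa
Ccl20: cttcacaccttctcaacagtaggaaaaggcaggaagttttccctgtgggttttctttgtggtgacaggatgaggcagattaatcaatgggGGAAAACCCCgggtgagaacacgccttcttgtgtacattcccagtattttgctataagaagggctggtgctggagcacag
Il6: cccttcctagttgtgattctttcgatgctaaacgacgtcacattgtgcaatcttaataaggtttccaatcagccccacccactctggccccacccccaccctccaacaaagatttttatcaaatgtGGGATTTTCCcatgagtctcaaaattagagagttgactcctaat
Cxcl10: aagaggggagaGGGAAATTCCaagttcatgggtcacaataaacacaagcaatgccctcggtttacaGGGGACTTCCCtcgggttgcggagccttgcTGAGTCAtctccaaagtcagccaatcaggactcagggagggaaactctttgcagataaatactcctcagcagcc
Cxcl1, Cxcl3 and Cxcl2 held the same match, GGGAATTTCC, whose first base lies 71, 73 and 97 bases before the start site, and an overlapping match on the other strand lengthens the capitals by 1 base. Ccl20 held GGGGTTTTCC on the other strand, Il6 held GGGATTTTCC 44 bases before the start, and Cxcl10 held GGGAAATTCC 159 bases before it and an overlapping pair nearer the start. Signals were 227 for Cxcl1, 233 for Cxcl3 and 124 for Ccl20, above the limit, and 11.9 for Cxcl2, 1.59 for Il6 and 6.41 for Cxcl10, not above the line.

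Promoters of 58 of the 83 genes were matched by symbol in the RefSeq table. In the 250 bases before the start site the kappaB consensus occurred in 13 of these 58 genes, and in 7.25% of all 32851 windows (8.23% of all 27025 genes in the table). The genes with a match were Cxcl1, Cxcl3, Ccl20, Kitl and Lif above the limit, Csf1 and Il16 between, and Cxcl2, Cxcl10, Il6, Ltb, Ccl1 and Ccl9 not above the line. By call, that is 5 of 9, 2 of 16 and 6 of 33 matched genes. The AP-1 motif also occurred in 13 of the 58 genes, and in 6.75% of all windows (7.82% of all genes in the table), by call in 2 of 9, 5 of 16 and 6 of 33, with Il1a and Lif as the genes above the limit. A match describes these letters only and shows no binding, and the motifs were chosen with the signals known.

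The interferon-inducible chemokines that attract T cells and natural killer cells through Cxcr3 gave little signal. Cxcl9 read 8.87 and 1.42, and Cxcl10 6.41. Cxcl11 read 24.8 and 8.22, so 1 of its probe sets passed the line. The homeostatic chemokines Cxcl12, the ligand of Cxcr4, Cxcl13, the follicle chemokine, and Cxcl14 were not above the line on any of their 7 probe sets, which reached at most 9.40, 14.9 and 12.4. Cxcl17, a chemokine of mucosal epithelia, gave 127 on a single probe set. The chemokines anchored in the membrane both passed the limit. Cxcl16, a scavenger receptor and ligand of Cxcr6, gave 457 and 321 on both of its probe sets. Cx3cl1 (fractalkine) read 117, 50.7, 3.05 and 0.830 on 4 probe sets, and the median over them, 12.4, was not above the line.

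CC chemokines were above the line in 5 of 18 genes (27.8%), beside 63.3% of all genes and 48.4% of those with a single probe set. The 18 genes had 23 probe sets. The role groups used here and below were formed with the signals known, so their counts are descriptions only. Ccl20, which attracts dendritic cells and Th17 cells through Ccr6, gave 124 on 1 probe set and was the only CC chemokine above the limit. Ccl25, the thymus and gut chemokine, read 53.5 and 32.6. Ccl27a, a skin chemokine, read 36.9 on a probe set whose name ends in _x_at, which marks probes that can match more than 1 gene. Ccl28, a mucosal chemokine, read 22.3, 19.8 and 5.20. The fifth was Ccl4 (MIP-1beta) at 35.0, while Ccl3, its neighbour and partner in macrophages, read 1.13.

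None of the 6 chemokines of monocytes and eosinophils passed the line. Their signals were 16.5 for Ccl8, 13.9 for Ccl2 (MCP-1), 8.61 for Ccl7, 2.75 for Ccl24, 2.20 for Ccl12 and 1.21 for Ccl11 (eotaxin). The Ccr4 ligands Ccl17 at 11.5 and Ccl22 at 5.67, which attract regulatory and type 2 T cells, and the Ccr8 ligand Ccl1 at 2.23 were also not above it. Ccl5 (RANTES), a product of T cells and of infected epithelium, gave 3.06, and the myeloid chemokines Ccl6 and Ccl9 read at most 10.1 and 9.70.

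Of the colony-stimulating factors Csf1, Csf2, Csf3 and Il3 and the Csf1 receptor ligand Il34, 4 of 5 were above the line and 2 above the limit. Of all genes 63.3% and 47.5% were, and of those with a single probe set 48.4% and 32.6%. The 5 genes had 8 probe sets. Csf2, encoding the granulocyte-macrophage factor, gave 508 on its only probe set, and Csf3, encoding the granulocyte factor, gave 154. Csf1, the macrophage factor, read 52.0, 32.6, 25.3 and 4.87, so that 3 of its 4 probe sets lay between the line and the limit. Il34, the other ligand of the Csf1 receptor, gave 59.8, just under the limit. Il3, the multilineage factor encoded beside Csf2, gave 4.56. Kitl, the stem cell factor, read 377, 129, 25.2 and 22.2, so that each of its 4 probe sets passed the line and 2 the limit.

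Cytokines that signal through the shared receptor subunit gp130 (Il6st) were divided. Lif, the leukemia inhibitory factor, gave 285 and 56.2, the first above the limit and the second just under it. Osm (oncostatin M), its neighbour on chromosome 11, gave 18.4, just above the line. Il6 at 1.59 and Il11 at 8.74 were not above the line. Clcf1, a related cytokine outside the symbol rule, passed the line on all 3 probe sets and reached 85.1, and Ctf1 gave 23.2.

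In the IL-1 family, 5 of 9 genes (55.6%) passed the line and 2 of the 9 (22.2%) the limit, beside 63.3% and 47.5% of all genes. The 9 genes had 10 probe sets, and of all genes with a single probe set 48.4% and 32.6% passed. At the line the family thus lay between these 2 shares, and at the limit below both. Il33, an alarmin held in the nucleus of epithelial cells and released on damage, gave 808, and Il1a, which can act in the same way, gave 226, each on a single probe set. Il18, constitutive in many epithelia, gave 58.5, and Il1b, which needs inflammatory caspases for release, gave 29.3. Il1f8, Il1f6 and Il1f9, for which the RefSeq table gives Il36b, Il36a and Il36g as synonyms, read 17.4, 16.5 and 10.4, and the receptor antagonist Il1f5 read 15.3 and 15.1. Il1f10 gave 12.1. The other epithelial alarmins, Tslp at 0.351 and Il25 at 6.11, were not above the line.

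Il24, a member of the IL-10 family that acts on epithelial cells, gave 576. Il20, which shares its receptors and lies next to it, gave 23.3, and Il10, the anti-inflammatory cytokine of the same neighbourhood, gave 8.11. Of the IL-17 family, Il17d read 37.6 and 1.50, the higher on an _x_at probe set, Il17a, a T cell product, gave 19.2, and Il17b at 4.58 was not above the line. Il16 passed the line on 1 of 4 probe sets at 28.3, with a median of 2.05 over them.

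A group of T cell growth and helper cytokines and the IL-12 family subunits, both formed with the signals known, were mostly not above the line. Of 9 T cell growth and helper cytokines only Il4 passed the line (11.1%), at 17.1, beside a line of 16.8. Of all genes 63.3% passed, and of those with a single probe set 48.4%, while the 9 genes had 11 probe sets. The groups leave out the T cell product Il17a, at 19.2, and Il16 and Il1b, at 28.3 and 29.3, which passed the line. Il7, the lymphocyte survival factor, read at most 11.6, Il15 10.6, Il9 10.2, Il21 6.09, Il2 5.63, Il13 3.35, Il5 1.79 and Il31 0.866. The IL-12 family subunits Il12a, Il12b and Il23a read at most 10.3, 9.10 and 8.52.

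In the TNF superfamily, 5 of 11 genes (45.5%) were above the line, beside 63.3% of all genes. The share was 48.4% for genes with a single probe set and 78.6% for those with more, and the 11 genes had 18 probe sets. Tnfsf9, the ligand of the T cell costimulatory receptor Tnfrsf9 (CD137), gave 442 and was the only one above the limit. Tnfsf4 (OX40 ligand) at 35.2 and Tnfsf8 (CD30 ligand) at 17.4 lay between. The B cell survival factor Tnfsf13b (BAFF) read 25.3, 9.15 and 1.33, and the death ligand Tnfsf10 (TRAIL) 17.4, 3.64 and 0.827, so that each passed on 1 of 3 probe sets. Tnf at 3.07, Ltb at 1.71 and Lta at 1.39, which lie side by side on chromosome 17, were not above the line. Neither were Tnfsf14 (LIGHT), at most 1.40, Tnfsf11 (RANKL), at most 0.568, or the RNA Tnfsf13os, at most 9.02.

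Many ligand genes lie near each other on the chromosomes, and neighbours were read side by side. The counts stand beside the 42.2% of all ligand genes and 63.3% of all genes that passed the line. Neighbours were defined as ligand genes within 600 kb of each other in the RefSeq table of GRCm38.p6, with Ppbp and Pf4 added. On chromosome 5 the order Cxcl5, Ppbp, Pf4, Cxcl3, Cxcl15, Cxcl1, Cxcl2 held 5 of 7 genes above the line. It held 3 genes above the limit, Ppbp, Cxcl3 and Cxcl1, and the genes at either end, Cxcl5 and Cxcl2, were not above the line. On chromosome 11 Csf2 stood above the limit between Il5 at 1.79 and Il3 at 4.56. The monocyte chemokine cluster of chromosome 11, Ccl2 to Ccl1, held 0 of 6 genes above the line. On chromosome 8 Cx3cl1 at 117 lay between Ccl22 at 5.67 and Ccl17 at 11.5. Il24 on chromosome 1, Tnfsf9 on chromosome 17, Il1a on chromosome 2 and Lif on chromosome 11 each were above the limit beside a neighbour that was not. Of these neighbours Il20, Il1b and Osm passed the line and Tnfsf14 did not.

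**Figure D2:**
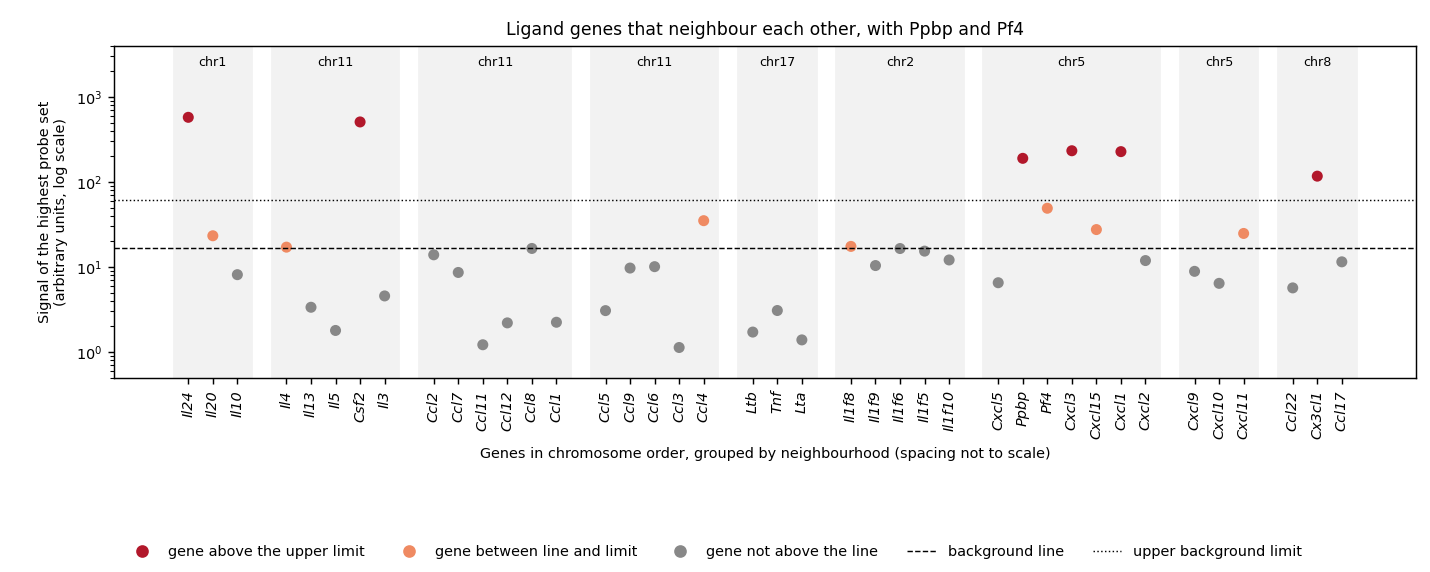
Signal of the highest probe set (arbitrary units, log axis) of ligand genes in neighbourhoods of 3 or more genes, in chromosome order with spacing not to scale; each shaded band is 1 neighbourhood. Dashed and dotted lines mark the background line and upper limit. Csf2 on chromosome 11, Cx3cl1 on chromosome 8 and Il24 on chromosome 1 are the only genes of their bands above the limit, while the chromosome 5 band has 3.

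Receptors were paired with 13 of the 14 genes above the limit, all but Cxcl17. Of the 16 different receptor genes measured for them, 3 passed the limit, beside 17 of 68 (25.0%) in the whole receptor list. For 3 of the 13 a receptor subunit passed the limit, Il1r1 at 140 on 1 of 2 probe sets for Il1a, Il6st at 64.2 on 1 of 4 for Lif, and Csf2ra at 61.0 on 1 of 2 for Csf2. The partner subunits needed for signalling read 22.3 for Il1rap, between the thresholds on 1 of 5 probe sets, and 6.84 for Lifr and 6.06 for Csf2rb, not above the line. For 4 of the 13 no receptor passed the line, namely Cxcr2 at 1.23 for Cxcl1 and Cxcl3, Csf3r at 3.09 for Csf3 and Kit at 9.59 for Kitl. Ccr6 at 17.7, Cx3cr1 at 16.85, Cxcr6 at 21.4 and Tnfrsf9 at 29.0 lay between, Cx3cr1 only just above the line at 16.80. Cx3cr1 and Cxcr6 passed it on 1 of 2 probe sets and Tnfrsf9 on 1 of 3. Of the Il24 receptor subunits, Il22ra1 at 51.3 and Il20rb at 20.6 passed the line and Il20ra at 11.5 did not. Il1rl1, the receptor of Il33, was not analysed here.

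**Figure D3:**
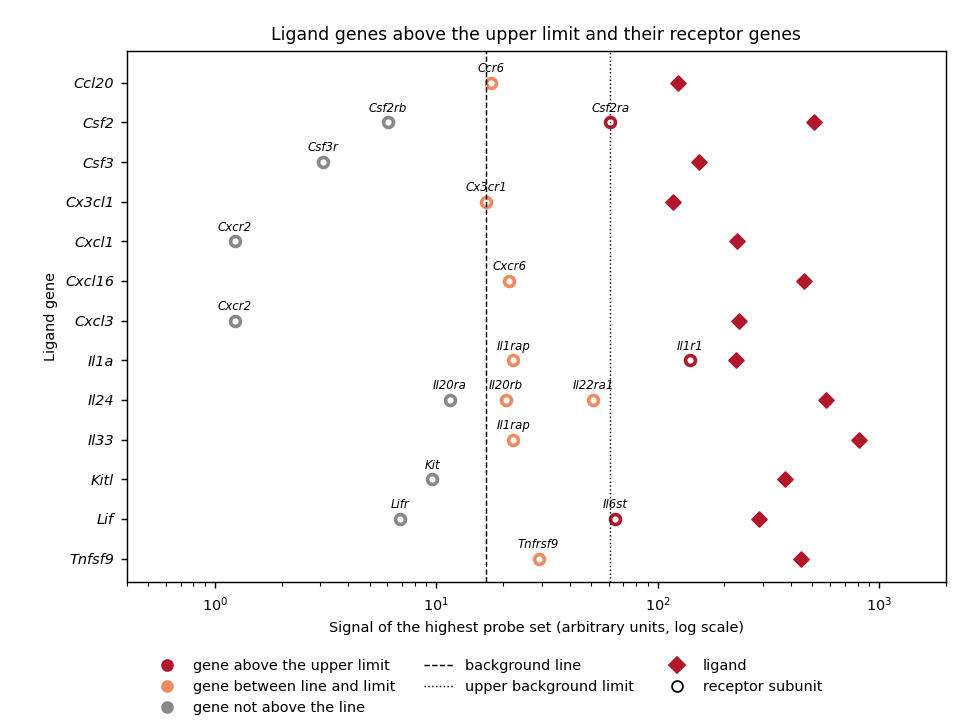
Signal of the highest probe set (arbitrary units, log axis) for 13 ligand genes above the upper limit (filled diamonds) and their measured receptor subunits (open circles, coloured by their own call). The dashed line is the background line and the dotted line the upper limit. Il1r1, Il6st and Csf2ra are the receptor genes right of the limit; Il1rl1, which pairs with Il33, is not shown.

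Over the whole receptor list 32 of 68 genes (47.1%) passed the line and 17 (25.0%) the limit, below the 63.3% and 47.5% of all genes, and the median level was 12.9. The receptors above the limit included Tnfrsf12a, the receptor of the TNF ligand Tnfsf12, at 2395 and 2263 on both probe sets. Tnfrsf1a, the main TNF receptor, passed it at 539. Il17re, a receptor for epithelial IL-17 signals, read 542, 252 and 38.8, the last between the thresholds. Il10rb, shared by IL-10 family receptors, read 706 on 1 of 2 probe sets and 19.5 on the other. The ligand Tnf itself read 3.07. Both chains of the Il18 receptor were above the limit, Il18r1 at 136 and Il18rap at 135 and 60.1, the last just under it. Crlf2, a chain of the Tslp receptor, gave 169, beside Tslp at 0.351 and its other chain Il7r at 6.08. Cxcr4 read 0.629.

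The NF-kappaB pathway, which links many receptors to ligand transcription, passed the line with all 21 measured genes and the limit with 17, with a median level of 190. Among all genes 63.3% and 47.5% passed, and among those with 2 or more probe sets 78.6% and 62.8%. The 21 genes had 57 probe sets. By the lowest probe set of each, 15 of the 21 passed the line, beside 47.0% of all genes. Rela, the main activating subunit of the pathway, gave 549. Among regulators that the pathway itself induces, Nfkbia read from 48.0 to 1268 on 5 probe sets, Nfkbiz from 231 to 1460 on 3 and Tnfaip3 1059 and 138, while Nfkbie, at 24.6 and 21.2, lay between the thresholds. Relb at 24.5 and Rel at 23.3 lay between the thresholds. Levels of transcripts do not show whether the pathway was active. Of JAK, STAT and SOCS genes, which carry signals from interleukin receptors, 13 of 15 (86.7%) passed the line and 10 (66.7%) the limit. These 15 genes had 36 probe sets, and their shares lay near the 78.6% and 62.8% of genes with 2 or more. Jak2 reached 544, Stat3 291 and Socs3 201, while Stat4, a lymphocyte factor, gave 0.701.

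Of 15 genes that release or process ligands 11 (73.3%) passed the line and 8 (53.3%) the limit. Adam10, a protease that sheds Cxcl16 and Cx3cl1, reached 1309, Adam17, which sheds Tnf, 406, and Gsdmd, the pore that lets out IL-1 family proteins, 588. Of the inflammasome genes, the DNA sensor Aim2 at 42.6 lay between the thresholds. Casp1 at 6.80, Nlrp3 at 15.7, Pycard at 16.78 and Casp4 at 0.860 were not above the line, Pycard only just under it. Of decoys and antagonists 8 of 13 (61.5%) passed the line and 6 (46.2%) the limit, shares near the 63.3% and 47.5% of all genes, among them the scavenging receptor Ackr3 at 229, the IL-1 family inhibitor Sigirr at 296 and the Il1 receptor antagonist Il1rn at 63.4, 37.1 and 23.3, with Il18bp at 3.44. All 10 measured genes that bind and control the stability of cytokine messenger RNAs passed the line and 9 the limit. Among all genes 63.3% and 47.5% did, and among those with 2 or more probe sets 78.6% and 62.8%. The 10 genes had 32 probe sets. By the lowest probe set of each, 6 of the 10 passed the line, beside 47.0% of all genes. Zfp36l1, which binds AU-rich elements, gave 1968, and Zc3h12a (Regnase-1), which recognises stem-loops, was the one between the thresholds, at 41.9. Of 12 ligands outside the symbol rule, 6 passed the line and 3 the limit, Mif, at 4141 on 1 of 3 probe sets with the others at 6.84 and 4.03, Ppbp and Clcf1.

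**Figure D4:**
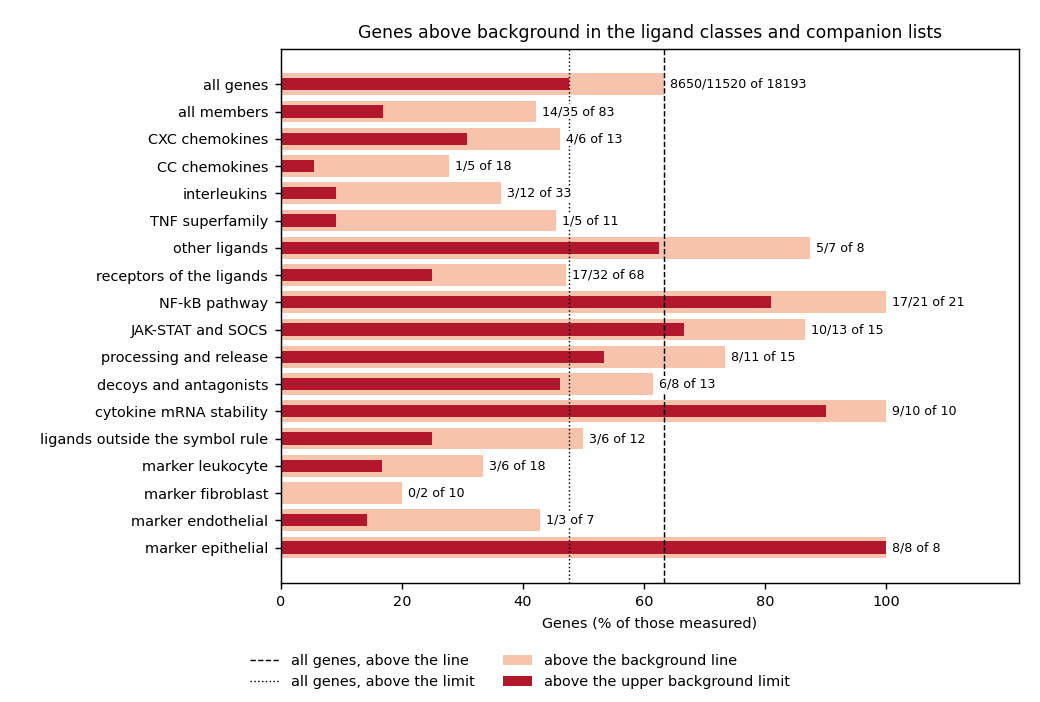
Share of measured genes above the background line (wide pale bars) and above the upper limit (narrow dark bars), in percent, for all genes, the ligand genes, their classes and the companion lists; the text beside each bar gives the number above the limit, the number above the line and the number measured. The dashed and dotted lines mark all genes, at 63.3% and 47.5%. The bar of all ligand genes ends at 42.2% and that of the NF-kappaB list at 100%.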

How the data were processed

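Per the labels' protocols, biotin-labelled RNA of 1 sample was hybridized to 1 Affymetrix array. The authors deposited a linear signal intensity for each probe set, and the submitters' processing notes name Affymetrix Expression Console. Its algorithm, version, scaling, background correction and any genome build were not given in the sources used here. No detection call was used, so dim signals carry little information on amount, and their precision is limited by the number of arrays, 1.

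Of 45101 probe sets, 64 were controls, 34945 named 1 gene and were used, 932 named several and 9160 none. Symbols were those of the platform annotation. Looking them up by gene ID in the RefSeq table of GRCm38.p6, which holds some older names such as Il1f8, changed no member's symbol. Signals were taken to log2 to set the line at the 95th percentile of background probe sets, and a gene's level is its highest probe set. Every member above the line is named; below it, members on a fixed list and the extremes of each class are named, and most others too. Members, lists, roles and motifs were chosen with earlier results of these data known. Calling was tested on simulated signals with known answers, in which genes were either far above the background or drawn like it. Only genes with a single probe set were scored. The simulation therefore says nothing on calls near the line or on genes with several probe sets. Alternatives changed the line, the background set, the probe sets admitted, the rule that combines them and the symbols. Python 3.11.15, numpy 2.4.6, pandas 2.3.3 and matplotlib 3.10.9 were used.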

Additional observations from a re-analysis of the deposited data

Results flagged for a closer look

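Probe sets that name several genes were left out of the ligand counts, and 2 of the 8 that name a chemokine, interleukin or TNF-family gene gave signal above the upper limit, for which they are given here. The probe set shared by Il2 and Ntan1 read 641, while the probe set of Il2 alone read 5.63. The probe set shared by Ccl27a, Ccl27b and 3 other genes read 92.4, a second one for the same 5 genes read 24.8, and the probe set of Ccl27a alone 36.9. Which gene gave these signals was not tested. The other 5, for Tnfsf12 and Tnfsf13, Il22, Ccl19 and Ccl21 genes, read from 1.38 to 12.8 and were not above the line.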

How the results depend on the processing

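No paired analysis was possible because there is 1 sample, and no replicate could be left out. All 14 ligand genes above the upper limit stayed above the line under each of the 8 alternatives, except Cx3cl1, which read 12.4 for the median over its probe sets and 0.830 for the lowest. No alternative line was higher than 60.6, and 9 of the 14 had a single probe set. Most of these outcomes were therefore fixed in advance and are no check of the 14 calls. With the 99th percentile as the line (35.5), 20 ligand genes passed, with 3 CC chemokines, 6 interleukins, 1 TNF-superfamily gene, 21 receptors, 0 fibroblast and 1 endothelial markers. With the upper limit as the line, 14 passed, with 1 CC chemokine, 3 interleukins, 1 TNF-superfamily gene, 17 receptors, 3 ligands outside the rule, and 3 leukocyte, 0 fibroblast and 1 endothelial markers. With the 90th percentile 5 fibroblast markers passed. Without keratin-associated genes the upper limit fell to 19.2 and 29 ligand genes passed it, beside 60.8% of all genes, and 4 fibroblast markers passed the line. Without _x_at and _s_at probe sets 3 leukocyte and 1 fibroblast markers passed, Il17d fell to 1.50 and Ccl27a had no value. By the median over probe sets 28 ligand genes passed the line and 12 the limit, beside 57.8% and 38.8% of all genes. At the line, 3 TNF-superfamily genes and 0 fibroblast markers passed. By the lowest probe set 26 ligand genes passed the line and 11 the limit, beside 47.0% and 27.3% of all genes. At the line, 3 TNF-superfamily genes, 21 receptors, 6 messenger RNA stability genes, and 0 fibroblast and 1 endothelial markers passed. Updated symbols changed no count. The share of ligand genes above the line was below that of all genes in every setting, from 16.9% beside 47.5% at the upper limit to 47.0% beside 66.7% at the 90th percentile. The cause of the changes was not tested. Signal over background limits all calls between 16.8 and 60.6.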
